A study of Danio rerio with 15 samples.

Results

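The 200 transcripts described here were lower in zebrafish larvae exposed to tefluthrin than in untreated larvae, and lower by nearly the same amount at a low and at a high concentration. They were chosen from 64995 transcripts by a rule on measured values. Counts were scaled for depth by the median of ratios, which gives each library the typical ratio of its counts to a common profile, and the result is called a scaled count. For control, tefluthrin 60 nM and tefluthrin 2.3 µM, log2(mean scaled count + 5) was taken. A transcript was kept when its control mean lay between 50 and 10000, when it was lower by at least 0.6 at each tefluthrin concentration, and when the 2 concentrations differed by at most 0.2. Every tefluthrin library also had to lie below every control library. The 200 with the largest mean drop, control minus the average of both tefluthrin groups, were taken from the 432 that passed.

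Poly(A) RNA was sequenced from pools of whole Danio rerio larvae of the wild-type NHGRI-1 strain at 72 h post fertilisation. Exposure ran from 48 h to 72 h post fertilisation, and each of 5 groups had 3 libraries, numbered I, II and III: tefluthrin 60 nM, tefluthrin 2.3 µM, acetochlor 780 nM, acetochlor 7.8 µM and untreated control. All groups share strain, age and pooling. The labels name no batch, clutch or culture, so that a group and the clutch or handling it came from cannot be told apart, and p-values measure only the spread between these libraries. For tefluthrin 2.3 µM the column headers give nanomolar, whereas the titles and the design text give micromolar, which is used here.

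Tefluthrin is a pyrethroid insecticide. Pyrethroids hold voltage-gated sodium channels of nerve and muscle open for longer, and in animals they cause repetitive firing and tremor. Acetochlor is a chloroacetanilide herbicide, which in plants blocks the synthesis of very-long-chain fatty acids. A larva at this age still feeds on its yolk, and RNA of the whole animal mixes muscle, skin, brain, eye, liver and other tissues. In such bulk samples, fewer cells of a type and less RNA per cell cannot be told apart.

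Results are given by Ensembl transcript identifier. No identifier matched the gene tables used here (0 of 64995), so gene names, roles, positions and sequences are not given, and the labelled tissue was not checked against marker genes. Reads that fit several transcripts of a gene are divided between them by the quantification, which leaves fractional estimates. Of the 200 members, 46 (23%) had a whole estimate in every library and 154 (77%) had a fractional one in at least 1 library, where an estimate within 1e-09 of an integer counts as whole. Among the 21417 transcripts in the same control range, 25.5% were whole in every library. Transcript length was not used, so a scaled count is a depth: levels are compared between libraries, and a transcript with more counts than another is measured more precisely but is not said to be more abundant.

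Library totals ran from 17354405 to 25191374 estimated counts, and size factors from 0.831 to 1.276. The median transcript in the control range lay between -0.048 and 0.012 of its control mean on the log2(scaled count + 5) scale, depending on the library, so the scaling left little general shift. Replicates of every group differed by more than sampling noise.

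At either concentration the typical member was left with somewhat less than 50% of its control level. Across members, the level left, taken from the mean drop and so with the added 5 included, had a median of 45.7% of control. Its quartiles were 38.5% and 50.3%. Shares given below for single transcripts are of mean scaled counts without the added 5. The mean drop ran from 0.89 to 6.27 on the log2(scaled count + 5) scale, with a median of 1.13. A drop of more than 1 and at most 1.5 was found for 118 members (59%), a drop of at most 1 for 52, and a drop above 3 for 8. Control means ran from 50.1 to 5637 scaled counts, with a median of 204. These values describe the choice and carry no test.

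By library, the median member stood at -1.26, -1.21 and -1.08 relative to its control mean in tefluthrin 60 nM libraries I, II and III, and at -1.11, -1.10 and -1.32 in tefluthrin 2.3 µM libraries. It stood at -0.08, -0.09 and -0.15 in acetochlor 780 nM libraries, at -0.15, -0.25 and -0.20 in acetochlor 7.8 µM libraries, and at 0.01, 0.08 and -0.08 in control. Tefluthrin 60 nM III was the highest of the tefluthrin libraries and tefluthrin 2.3 µM III the lowest. Summed over all members, scaled counts were 36024 to 41089 in the 6 tefluthrin libraries, 80623 to 92484 in the 6 acetochlor libraries and 88066 to 97430 in control.

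**Figure D1:**
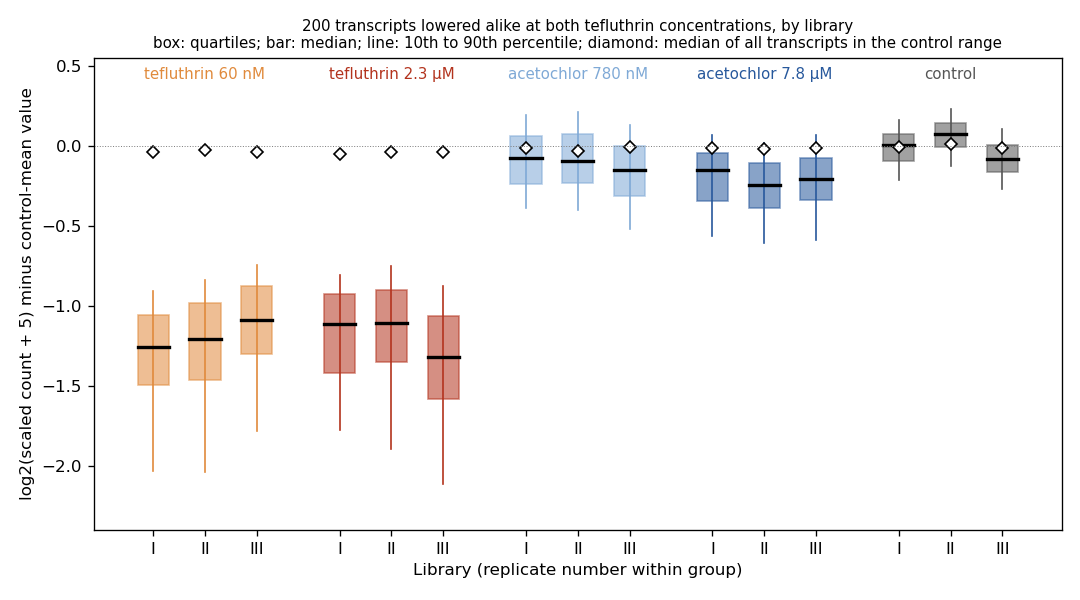
Log2(scaled count + 5) of the 200 members relative to the control mean of each, by library and group; boxes are quartiles, bars medians, lines the 10th to 90th percentile, and diamonds the median of all transcripts in the control range. Medians of the 6 tefluthrin libraries lie between -1.32 and -1.08, whereas those of the acetochlor and control libraries lie between -0.25 and 0.08.

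The plot by library shows the members' boxes shifted down in every tefluthrin library, where the diamonds stayed near 0. The order of the drops, plotted next, fell steeply over the first places and was flat around the limit. The last 3 members taken, ENSDART00000142317.3, ENSDART00000081191.6 and ENSDART00000134980.3, had mean drops of 0.8898, 0.8898 and 0.8881. The next 3 passing transcripts, ENSDART00000144025.2, ENSDART00000019446.6 and ENSDART00000145033.3, had 0.8879, 0.8874 and 0.8838. The limit of 200 therefore cuts a continuous series.

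**Figure D2:**
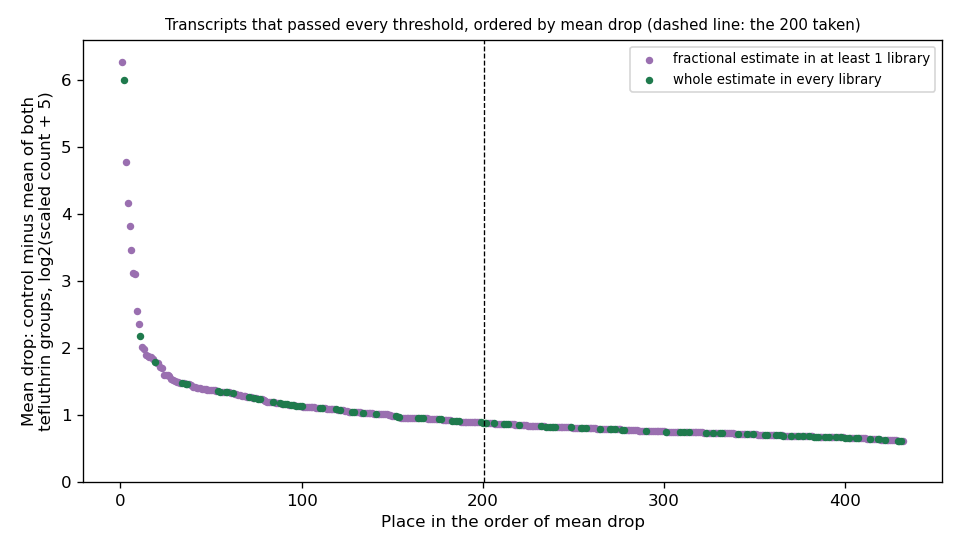
Mean drop on the log2(scaled count + 5) scale (vertical axis) against place in the order of the drop (horizontal axis) for the 432 passing transcripts; the dashed line marks the 200 taken. Drops run from 6.27 at the first place to 0.8881 at the last member taken, with no gap at the limit.

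A few members were almost or wholly absent from tefluthrin libraries. ENSDART00000169821.2, first in the order, had 14.9, 12.1 and 28.2 scaled counts at tefluthrin 60 nM and 28.8, 14.1 and 20.7 at tefluthrin 2.3 µM. It had 1615, 2178 and 1435 at acetochlor 780 nM, 1273, 1300 and 1752 at acetochlor 7.8 µM, and 1992, 2194 and 1540 in control. The tefluthrin groups kept 0.963% (60 nM) and 1.11% (2.3 µM) of the control mean, whereas the values of both acetochlor groups overlapped those of control.

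ENSDART00000111386.4, second in the order and whole in every library, was at 0 in all 6 tefluthrin libraries. It had 292, 283 and 360 scaled counts at acetochlor 780 nM, 0, 280 and 296 at acetochlor 7.8 µM, and 326, 353 and 265 in control. With a floor of 3 counts per library, it was at least 97.8-fold lower at 60 nM and at least 89.4-fold lower at 2.3 µM than its control mean. A 0 thus also occurred in acetochlor 7.8 µM library I, where the other libraries of that group lay at control values.

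A further 3 members, all with fractional estimates, were at 0 in all 6 tefluthrin libraries. ENSDART00000160682.2 had 110, 44.7 and 0 scaled counts at acetochlor 780 nM, 199, 147 and 170 at acetochlor 7.8 µM, and 222, 132 and 40.6 in control. ENSDART00000193019.1 had 60.1, 89.8 and 0 at acetochlor 780 nM, 0, 93.9 and 56.4 at acetochlor 7.8 µM, and 103, 74.3 and 76.1 in control. Each was also at 0 in 1 or 2 acetochlor libraries. With the same floor, ENSDART00000160682.2 was at least 41.0-fold lower at 60 nM and at least 37.4-fold lower at 2.3 µM than its control mean. That mean was 132 scaled counts with an SD of 90.8, so against the lowest control library the bounds would be smaller. For ENSDART00000193019.1 the bounds were at least 26.3-fold and at least 24.0-fold lower. All such bounds are set against the control mean and cover counting error alone.

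ENSDART00000171919.2 was at 0 in every tefluthrin and every acetochlor library and had 74.9, 28.4 and 47.1 scaled counts in control. It was at least 15.6-fold lower at tefluthrin 60 nM and at least 14.2-fold lower at tefluthrin 2.3 µM than its control mean. It is the only member at 0 in all 6 acetochlor libraries. The calls of these members against control were not firm. The edgeR fit did not call ENSDART00000193019.1 at 60 nM, and its call at 2.3 µM was lost with the replicate block and without any 1 of the tefluthrin 2.3 µM or control libraries. The limma voom test did not call ENSDART00000111386.4, ENSDART00000160682.2 or ENSDART00000193019.1 in either tefluthrin group. The call of ENSDART00000160682.2 at 60 nM was also lost without tefluthrin 60 nM library I. The calls of ENSDART00000171919.2 were lost in both tefluthrin groups with DESeq2, with the replicate block and without control library I, and at 60 nM also without control library III. In all, 18 members were at 0 in at least 1 tefluthrin library, 7 in at least 1 acetochlor library and 0 in any control library. The control count was fixed by the choice, since every tefluthrin library had to lie below every control library. The choice also favoured low tefluthrin values, so these counts describe it. The share of the control range at 0 is not given here.

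ENSDART00000138336.3, the fifth in the order, had 30.1, 0 and 30.0 scaled counts at tefluthrin 60 nM and 52.0, 12.4 and 0 at tefluthrin 2.3 µM. It had 212, 410 and 176 at acetochlor 780 nM, 384, 214 and 352 at acetochlor 7.8 µM, and 484, 441 and 157 in control. The tefluthrin libraries lay below all others, but control varied by more than 3-fold between its own libraries, and limma voom called it in neither tefluthrin group.

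A whole estimate in every library is what reads that were not divided give. Among whole members after ENSDART00000111386.4, the largest drop was that of ENSDART00000172706.2, with 44.6, 33.1 and 36.4 scaled counts at tefluthrin 60 nM and 39.8, 33.7 and 26.3 at tefluthrin 2.3 µM. It had 204, 193 and 165 at acetochlor 780 nM, 144, 175 and 165 at acetochlor 7.8 µM, and 164, 179 and 192 in control. The tefluthrin groups held 21.3% (60 nM) and 18.7% (2.3 µM) of the control mean, while both acetochlor groups overlapped control.

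ENSDART00000122379.4 had 46.7, 114 and 76.0 scaled counts at tefluthrin 60 nM and 90.1, 75.8 and 62.9 at tefluthrin 2.3 µM. It had 297, 275 and 305 at acetochlor 780 nM, 346, 283 and 250 at acetochlor 7.8 µM, and 258, 268 and 314 in control. The level left was 28.1% at 60 nM and 27.2% at 2.3 µM. ENSDART00000007732.8 had 194, 171 and 185 at tefluthrin 60 nM and 173, 190 and 127 at tefluthrin 2.3 µM, against 430, 497 and 548 in control. It had 404, 533 and 429 at acetochlor 780 nM and 488, 471 and 504 at acetochlor 7.8 µM, within or next to the control range.

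The 4 members with the highest CPM in control kept between 23.9% and 50.7% of it at tefluthrin 60 nM. ENSDART00000145496.2 averaged 1150 ± 69.4 scaled counts at tefluthrin 60 nM and 1276 ± 207 at tefluthrin 2.3 µM, against 4815 ± 267 in control (SD, n = 3 each). ENSDART00000112155.3 averaged 1915 ± 53.0 and 1803 ± 247 at the same concentrations, against 4820 ± 493 in control. ENSDART00000172114.2, which is whole in every library, averaged 2539 ± 185 and 2782 ± 174, against 5010 ± 33.4 in control. ENSDART00000159951.2 averaged 2838 ± 220 and 3184 ± 192, against 5637 ± 171 in control. The share left at 60 nM was 23.9%, 39.7%, 50.7% and 50.3% in that order of transcripts, so that members with many counts stood at large and at small drops.

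**Figure D3:**
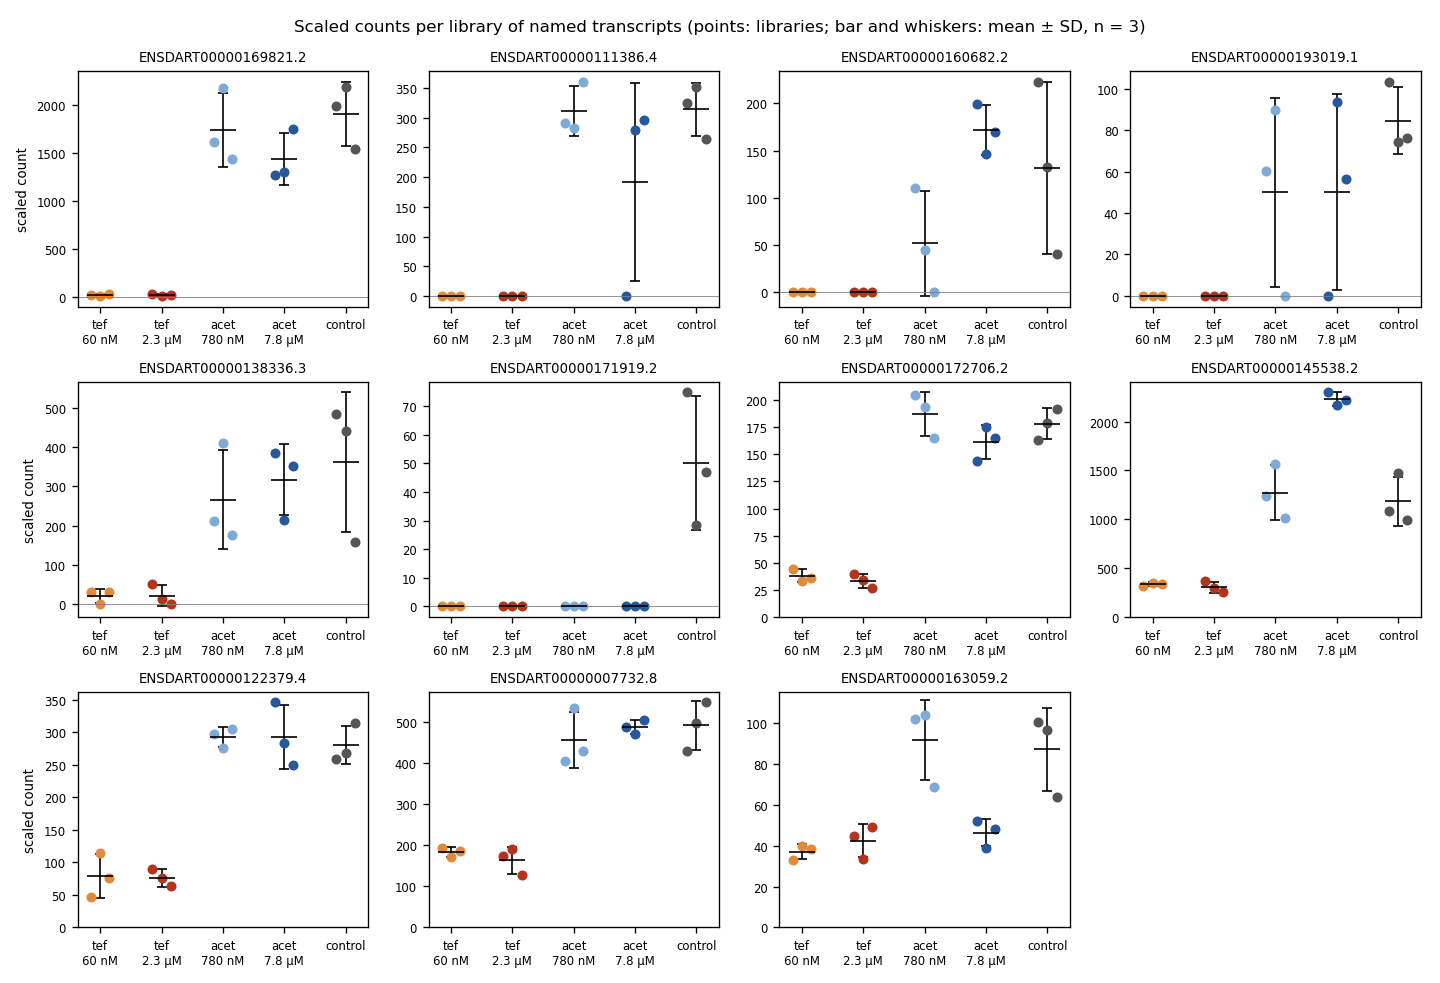
Scaled counts of 11 members by group; points are libraries and bars with whiskers are the mean ± SD (n = 3). Every tefluthrin point lies below every control point in each panel, as the choice required. Acetochlor points lie near control in most panels and all at 0 for ENSDART00000171919.2. For ENSDART00000111386.4 and ENSDART00000160682.2, 1 acetochlor point lies at 0, and for ENSDART00000193019.1, 2 do. At 7.8 µM, acetochlor points lie above control for ENSDART00000145538.2 and below it for ENSDART00000163059.2.

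In the edgeR fit across all 35865 transcripts tested, all 200 members were tested. At an adjusted p under 0.05, 180 members were called lower at tefluthrin 60 nM, where 7.92% of all transcripts tested were called lower. At 2.3 µM 183 were called lower, where 15.4% of all were. The median log2 fold change of members was -1.18 at 60 nM (-0.00 over all transcripts) and -1.22 at 2.3 µM (-0.02 over all). The choice used these libraries, so these counts describe it. The 21 members not called at one or the other concentration had a median control mean of 75.5 scaled counts, against 228 for the 179 called at both, and 0 of the 21 were whole in every library.

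Between the tefluthrin concentrations, 0 members were called by edgeR, where 19.1% of all transcripts tested were called. DESeq2 and limma voom also called 0 members, where they called 23.7% (DESeq2) and 17.5% (limma voom) of all. In edgeR 1 member had an unadjusted p under 0.05, where 30.9% of all had one. The limit of 0.2 was part of the choice and fixes this result. Fitted log2 fold changes of 2.3 µM over 60 nM ran from -0.24 to 0.24 with a median of -0.03. Their median standard error, derived from the fold change and the test statistic, was 0.182, slightly under the limit of 0.2. The median half-width of their confidence interval was 0.357, so that differences of the size of the limit lie within the interval of most members. By scaled counts, 91 members were higher at 2.3 µM, 105 were lower and 4 were equal.

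The same measure can be read in libraries left out of the thresholds. These come from the same groups, so a group and its clutch or handling are still not told apart, and the values are a description. The rule was applied to 2 of the 3 replicate numbers in control and both tefluthrin groups, the 200 with the largest drop were taken anew, and their drop was read in the third. The left-out libraries gave a median drop of 1.093 when number I was left out, 1.097 for II and 1.073 for III, against 1.229, 1.111 and 1.202 in the libraries used for the choice. At both concentrations, 171, 177 and 181 of 200 were lower than the left-out control library, where 37.2%, 38.6% and 36.6% of transcripts in the control range were. A drop of at least 0.6 at both concentrations was found for 139, 146 and 133, where 6.52%, 7.03% and 5.87% of the range had one. The control range behind these shares was the same in all 3 divisions, set with every control library. The choice itself used the control mean of the 2 libraries kept.

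The share within the limit of 0.2 lay somewhat above that of the control range with number I or II left out. With III left out it lay below. In the left-out libraries, the 2 concentrations lay within 0.2 of each other for 76, 80 and 50 of the 200, where 30.5%, 34.8% and 34.1% of the control range did. The median difference of 2.3 µM minus 60 nM was 0.02 with number I left out, 0.02 with II and -0.30 with III. Single libraries are compared here, so the difference has no replicate check. In number III the tefluthrin 2.3 µM library was the lower one for most of the transcripts chosen without it.

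Between replicates, members had a wider spread in the tefluthrin groups than in control. The median coefficient of variation of members was 15.2% for tefluthrin 60 nM, 16.1% for tefluthrin 2.3 µM, 11.9% for acetochlor 780 nM, 10.7% for acetochlor 7.8 µM and 10.4% for control. Over all transcripts in the control range it was 9.96%, 10.5%, 13.1%, 10.8% and 9.59% in the same order of groups. Member counts are lower in the tefluthrin libraries, and the part of counting error in this spread was not tested. The choice set limits on the values of the control and tefluthrin libraries, so their spreads among members are a description.

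The acetochlor libraries entered the choice only through the scaling, not through its thresholds. For 168 of 200 members, all 6 tefluthrin libraries lay below all 6 acetochlor libraries, a pattern held by 8.93% of transcripts in the control range. In edgeR, 168 members were called lower at tefluthrin 60 nM than at acetochlor 780 nM, where 6.91% of all transcripts tested were, with a median log2 fold change of -1.11. At tefluthrin 2.3 µM against acetochlor 7.8 µM, 170 were called lower, where 14.7% of all were, with a median of -1.01. The tefluthrin libraries, which the choice required to be low, are part of both comparisons, so the counts are a description.

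Against control, the typical member lay slightly low in the acetochlor groups. On the log2 scale, 9 members at 780 nM and 14 at 7.8 µM were lower by 0.6 or more, and 0 and 2 were higher by as much. The share of the control range that was so is not given here. For ENSDART00000171919.2 the edgeR log2 fold change was -8.69 in both acetochlor and both tefluthrin groups, but only the tefluthrin comparisons called it. The edgeR test called 0 members at acetochlor 7.8 µM, where 0.106% of all transcripts tested were called. At an unadjusted p under 0.05 it had 34 members, 33 of them lower, where 7.12% of all had one, and the median log2 fold change was -0.21 for members and 0.00 over all. DESeq2 called 7 members lower and 1 higher at 7.8 µM, where it called 1.19% of all transcripts, and the higher one was ENSDART00000145538.2, which was also the 1 member called by limma voom, where that test called 0.117% of all. At acetochlor 780 nM edgeR, DESeq2 and limma voom called 0 members, where edgeR and limma voom called 0% of all transcripts and DESeq2 called 0.251%. By edgeR 4 members had an unadjusted p under 0.05 (2.53% of all), and the median was -0.08. These comparisons share the control libraries, which the choice required to lie above every tefluthrin library, and are a description.

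All 3 acetochlor 7.8 µM libraries lay below all 3 control libraries for 63 members, where 8.81% of the control range did, and above them for 2, where 6.95% did. All 3 acetochlor 780 nM libraries lay below control for 19 members, where 3.46% did. On the way from the tefluthrin mean to the control mean, the median member stood at 0.832 of the distance at acetochlor 7.8 µM and at 0.94 at acetochlor 780 nM. The choice required control to be high and tefluthrin to be low, while the other transcripts of the range were not so chosen. These positions are therefore a description too.

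The comparison of acetochlor 7.8 µM with acetochlor 780 nM sets libraries against each other that the thresholds of the choice did not use. Control and tefluthrin libraries enter this fit only through the filter, the scaling and the shared estimate of the spread. The replicates of acetochlor 780 nM differed from each other more than those of any other group. By edgeR 0 members were called, where 24 of all transcripts tested (0.0669%) were, and the smallest adjusted p of a member was 0.241. At an unadjusted p under 0.05 there were 12 members (6%), 11 lower and 1 higher, where 4.65% of all had one. DESeq2 called 3 members, where it called 0.58% of all, and limma voom called 0, where it called 0.0641%. The log2 fold change was negative for 159 of 200 members (79.5%), where 50.8% of all transcripts were negative, and its median was -0.13 for members and -0.00 over all. An edgeR fit on the 6 acetochlor libraries alone, added after the data were seen, tested 199 members and called 0, where 0.00614% of 32594 transcripts were called. It had 13 members at an unadjusted p under 0.05, 12 of them lower, where 3.25% of all had one, and 159 members (79.9%) were negative, where 51% of all were.

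Subsets of the members showed the same sign. The log2 fold change was negative for 43 of the 46 whole members (93.5%), with a median of -0.13, where 52.3% of 7595 whole transcripts tested were negative, with a median of -0.01. Of fractional members, 116 of 154 (75.3%) were negative, with a median of -0.14, where 50.4% of 28270 fractional transcripts tested were, with a median of -0.00. In the first 100 places 76 members were negative and in the last 100 places 83. All 3 libraries at 7.8 µM lay below all 3 at 780 nM for 20 members, where 4.06% of the control range did, and above them for 5, where 3.76% did. Transcripts of a gene and genes that move together are not independent, so these counts carry no test.

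**Figure D4:**
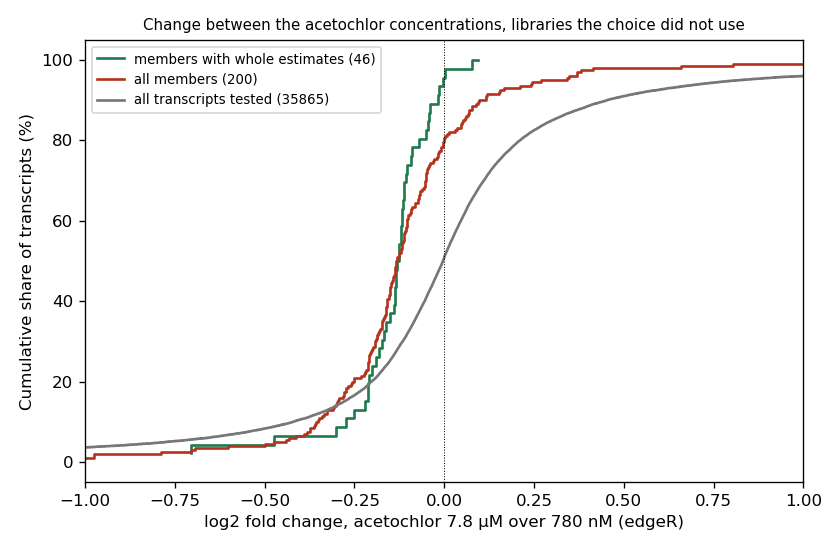
Cumulative share of transcripts (%) by log2 fold change of acetochlor 7.8 µM over 780 nM in the edgeR fit, for the 46 whole members, all 200 members and all 35865 transcripts tested. The member curves cross 0 at 79.5% (all members) and 93.5% (whole members), and the curve of all transcripts at 50.8%; values beyond -1 and 1 lie outside the axis.

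In the plot of the acetochlor concentrations, the member curves lie to the left of the curve of all transcripts over the middle of the range, with few members in the tails. The member with the smallest p was ENSDART00000145538.2, the 1 member with an unadjusted p under 0.05 that was higher. It had 2303, 2169 and 2220 scaled counts at acetochlor 7.8 µM, against 1237, 1567 and 1016 at acetochlor 780 nM. The groups did not overlap, and the log2 fold change was 0.81 (SE 0.170, edgeR unadjusted p = 0.000443, adjusted p = 0.241). It had 320, 352 and 341 at tefluthrin 60 nM, 364, 298 and 252 at tefluthrin 2.3 µM, and 1082, 1468 and 996 in control. It thus lay lowest in tefluthrin larvae and highest in larvae at the higher acetochlor concentration.

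ENSDART00000163059.2 had the second smallest p, with 52.2, 38.9 and 48.4 scaled counts at acetochlor 7.8 µM, against 102, 104 and 69.0 at acetochlor 780 nM. The groups did not overlap, and the log2 fold change was -0.98 (SE 0.229, edgeR adjusted p = 0.363). It had 33.2, 39.8 and 38.5 at tefluthrin 60 nM, 44.9, 33.3 and 49.2 at tefluthrin 2.3 µM, and 100.8, 96.8 and 63.9 in control. The acetochlor 7.8 µM libraries overlapped the libraries of both tefluthrin groups, and those at 780 nM overlapped control. The test did not call either transcript, and DESeq2 called both.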

How the data were processed

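Poly(A) RNA of pooled larvae was measured in 15 libraries, grouped by the sample titles. The deposited files hold estimated counts per Ensembl transcript, not normalised. Per the submitters' processing notes, Salmon 1.6.0, FastQC, MultiQC and GRCz11 were used; the annotation release is not given in the sources used here. The members and the lists were chosen with earlier results of these data known.

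Size factors came from 29953 transcripts above 0 in every library. Estimates were rounded, filtered with filterByExpr by group, scaled with TMM and fitted with edgeR 4.0.16 (R 4.3.3, quasi-likelihood, all 15 libraries, group as the only term). Tests were two-sided, with Benjamini-Hochberg adjustment over 35865 transcripts and a threshold of 0.05. Alternatives used DESeq2 1.42.0 and limma 3.58.1. The floor of 3 counts per library covers counting error alone and treats every read as its own molecule. Scripts were tested on simulated data.

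Named transcripts were the 6 members with the largest drop, the 4 with the highest control CPM and the first 4 whole in every library. The 2 members with the smallest p between acetochlor concentrations, and 3 transcripts on either side of the limit, were also named. Tests by gene name were planned and not run, since 0 identifiers matched the tables. Replicate pairs gave 2.94 to 22.9 chi-square per degree of freedom over 7277 to 7288 transcripts with whole estimates, and each library counted as 1 replicate. The highest values, 9.42, 11.06 and 22.86, were those of the acetochlor 780 nM pairs, and pairs of the other groups reached at most 7.56.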

Additional observations from a re-analysis of the deposited data

How the results depend on the processing

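Which transcripts were taken depended on the rule's settings. Of the 200 members, 119 were taken with library totals only, 94 with a limit of 0.1 between the concentrations, 118 with a limit of 0.4 and 46 among transcripts with whole estimates only; leaving out a library kept 136 to 181. The number that passed was 241, 689 and 107 with the limits of 0.1 and 0.4 and whole estimates only, and 377 to 516 without a library. The median drop in left-out libraries was 1.073 to 1.097. Between acetochlor concentrations DESeq2 called 3 members (ENSDART00000145538.2, ENSDART00000163059.2 and ENSDART00000159951.2), and no other setting called any, the fit on the acetochlor libraries alone included. At acetochlor 7.8 µM against control DESeq2 called 7 lower, and leaving out a library gave 0 to 1, the 1 without acetochlor 7.8 µM III. ENSDART00000145538.2 was called higher there with library totals only, with DESeq2 and with limma voom. Between tefluthrin concentrations library totals only called 2 members, where the main fit called 19.1% of all transcripts. In that comparison leaving out a library gave 0 to 2, with 1 without tefluthrin 60 nM II and 2 without tefluthrin 2.3 µM III. Leaving out a library gave 163 to 175 members lower at tefluthrin 60 nM and 175 to 181 at 2.3 µM. The replicate block gave 176 members lower at tefluthrin 60 nM, 180 at 2.3 µM and 0 between concentrations and for acetochlor against control. In the main fit, 7.92% of all transcripts tested were called lower at tefluthrin 60 nM and 15.4% at 2.3 µM. The shares over all transcripts in these other settings are not given here. The choice used these libraries, so the tefluthrin counts describe it. Correlations of same-numbered libraries, taken over 32500 transcripts together, ran from -0.103 to 0.0893 over 30 pairs. Whether a smaller set of transcripts shared a deviation was not tested. The labels do not say whether libraries of the same number were handled together. Tefluthrin against acetochlor was a comparison chosen after seeing the data. Over all settings it gave 153 to 176 members lower at the lower concentrations and 152 to 179 at the higher ones. The main fit called 6.91% (lower concentrations) and 14.7% (higher ones) of all transcripts lower. Both comparisons share the tefluthrin libraries, which the choice required to be low. Between acetochlor concentrations the members' median lay under that of all transcripts by 0.095 to 0.137 in every setting, with 135 members negative under library totals only, where the median of all transcripts was 0.05. Of 572 values for named transcripts, 534 kept direction and side of the threshold, 32 lost the call, 6 gained it and 0 reversed. The named transcripts include the 3 just after the limit, which are not members. The cause was not tested. Counts summed per gene were not run. Depth limits the members at 0, whose folds are bounds.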

Other observations

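ENSDART00000164249.2, eighth in the order and chosen here after its values were seen, had 95.4, 79.5 and 88.9 scaled counts at tefluthrin 60 nM and 96.0, 89.1 and 96.1 at tefluthrin 2.3 µM. It had 675, 939 and 611 at acetochlor 780 nM, 653, 633 and 903 at acetochlor 7.8 µM, and 855, 897 and 697 in control. In acetochlor 780 nM and in control, library II was the highest and library III the lowest, as for ENSDART00000169821.2, and in acetochlor 7.8 µM library III was the highest for both. ENSDART00000184387.1, ninth in the order and also chosen after its values were seen, had 25.6, 0 and 40.3 scaled counts at tefluthrin 60 nM, 0, 0 and 71.9 at tefluthrin 2.3 µM, and 160, 140 and 175 in control. It had 228, 291 and 201.3 at acetochlor 780 nM and 335, 564 and 242 at acetochlor 7.8 µM, all above control. The edgeR test did not call it against control in any group. Its log2 fold change was 0.60 (SE 0.89) at acetochlor 780 nM and 1.26 (SE 0.89) at acetochlor 7.8 µM. Its level at tefluthrin 2.3 µM rests on library III, and without that library edgeR called it lower than at 60 nM.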
